A study of Rattus norvegicus with 12 samples.

Results

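Transcript levels of 7 genes of the excitatory synapse were followed in the brain and testis of hDNMT3A transgenic rats. DNMT3A is an enzyme that methylates cytosines of CG pairs in DNA, and the transgene is the human gene. The 7 rows were taken by Ensembl identifier from a table of 25908 genes, and the gene names are those of the list that defined the group: Grin1 (ENSRNOG00000011726), Grin2a (ENSRNOG00000033942), Grin2b (ENSRNOG00000008766), Camk2a (ENSRNOG00000018712), Dlg4 (ENSRNOG00000018526), Snap25 (ENSRNOG00000006037) and Bdnf (ENSRNOG00000047466). All samples came from adult male Sprague Dawley rats, 15 weeks old. The 4 groups were wild-type brain, hDNMT3A brain, wild-type testis and hDNMT3A testis, with 3 libraries each. The labels name neither the promoter of the transgene, nor the founder lines, nor the region of the brain taken, and the level of the transgene itself was not analysed here. The sample codes carry the same letter and number in brain and testis of a genotype, but no label states whether these came from the same animal. Nor do the labels say that the libraries of a group came from different animals. The p-values below therefore rest on a spread between samples that may be only technical.

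NMDA receptors are glutamate-gated cation channels that pass calcium when glutamate is bound and the membrane is depolarised. Each channel combines the obligatory subunit encoded by Grin1 with glutamate-binding subunits such as those encoded by Grin2a and Grin2b, and forebrain neurons shift from mostly Grin2b toward more Grin2a as they mature. Calcium that enters through the channel activates the kinase whose alpha subunit is encoded by Camk2a, while the scaffold protein encoded by Dlg4 (PSD-95) holds the receptors at the postsynaptic membrane. Snap25 encodes a SNARE protein of the presynaptic terminal that drives fusion of transmitter vesicles, and Bdnf encodes a secreted neurotrophin made in response to activity.

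Because DNMT3A acts on CG pairs, the CG content of the start regions is shown for Grin1, which has the most CG pairs among the windows of these genes, and for the 2 Bdnf starts with the most and the fewest. RefSeq sequences on assembly GRCr8, which is not the build used for the expression table, matched 4 of the 7 genes by symbol, with 9 start sites, 6 of them in Bdnf. Grin2a, Grin2b and Snap25 were not matched. The window was the 250 bases before a start, and the letters searched were CG, which reads the same on both strands. Capitals mark each CG. The Grin1 window lies at chr3:28528755-28529004 on the minus strand, the Bdnf window with the fewest CG pairs at chr3:116620585-116620834 and the one with the most at chr3:116639552-116639801, both on the plus strand.
Grin1: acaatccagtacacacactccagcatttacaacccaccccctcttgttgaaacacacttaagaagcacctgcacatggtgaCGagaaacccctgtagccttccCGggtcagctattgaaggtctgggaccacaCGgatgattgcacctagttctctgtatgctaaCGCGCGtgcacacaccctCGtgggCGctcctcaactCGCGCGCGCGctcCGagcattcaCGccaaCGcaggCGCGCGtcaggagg
Bdnf, fewest CG: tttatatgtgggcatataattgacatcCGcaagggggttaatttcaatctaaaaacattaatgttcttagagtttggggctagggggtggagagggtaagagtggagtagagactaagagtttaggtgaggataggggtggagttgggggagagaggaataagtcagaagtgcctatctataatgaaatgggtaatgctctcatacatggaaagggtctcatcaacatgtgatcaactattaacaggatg
Bdnf, most CG: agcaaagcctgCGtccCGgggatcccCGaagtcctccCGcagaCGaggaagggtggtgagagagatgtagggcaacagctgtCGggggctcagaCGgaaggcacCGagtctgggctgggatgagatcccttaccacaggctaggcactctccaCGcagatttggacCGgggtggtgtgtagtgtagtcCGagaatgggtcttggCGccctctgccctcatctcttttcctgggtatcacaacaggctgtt
The Grin1 window held 19 CG pairs, and 18.4% of 33469 promoter windows of the same length held at least as many. The 6 Bdnf windows held from 1 to 12, with 92.2% of all windows holding at least 1 and 31.5% holding at least 12. Camk2a had 10 and Dlg4 had 5, beside a median of 5 over all windows. Expression was given per gene, so reads from the different Bdnf starts were summed, and DNA methylation was not measured in these files.

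Values are FPKM, read density scaled to gene length and library depth. Levels of different genes are compared per length, and so depend on gene lengths from an annotation that no source used here gives. Whole reads could be recovered from the steps of these values. The library totals implied by the steps were 14004547 to 16112149 reads. At least 99.98% of each total lay in genes of the table, so these totals are not counts of all reads sequenced. The gene lengths implied by the steps ran from 1514 bases for Camk2a to 6068 for Bdnf. Wild-type brain replicate 2 stood apart: 203 genes that were abundant in testis and nearly absent from brain reached 1.59% of their testis level there, against 0.051% to 0.330% in the other 5 brain libraries. Without it, none of the 7 genes was called between genotypes in brain either, and limma's lowest adjusted p was 0.827, for Grin2b, at a log2 fold change of 0.37. Other synaptic genes and markers of other cell types were not analysed here, since the table used for names matched no other identifier. The labelled tissues were set beside these 7 genes only, which is no independent check of the labels.

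In brain the 7 genes spanned a wide range of levels. Camk2a was the highest, at 1035 ± 143 FPKM over the 6 libraries (SD, n = 6), and only 23 genes of the table had a higher mean. Snap25 followed at 772 ± 80.3 FPKM (SD, n = 6) and Dlg4 at 281 ± 21.4 FPKM (SD, n = 6). The obligatory receptor subunit gene Grin1 stood at 99.0 ± 7.16 FPKM (SD, n = 6), Grin2a at 22.9 ± 5.66 FPKM and Grin2b at 5.70 ± 1.34 FPKM. Bdnf lay between these last genes at 8.73 ± 0.616 FPKM. The order was the same in every brain library with 1 exception, hDNMT3A replicate 2, where Snap25 exceeded Camk2a and the ratio of Camk2a to Snap25 was 0.903. The ranges of Camk2a and Snap25 overlapped, while those of the other 5 neighbouring pairs did not. These were the levels of whole tissue, in which fewer cells of a type and less RNA per cell cannot be told apart.

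**Figure D1:**
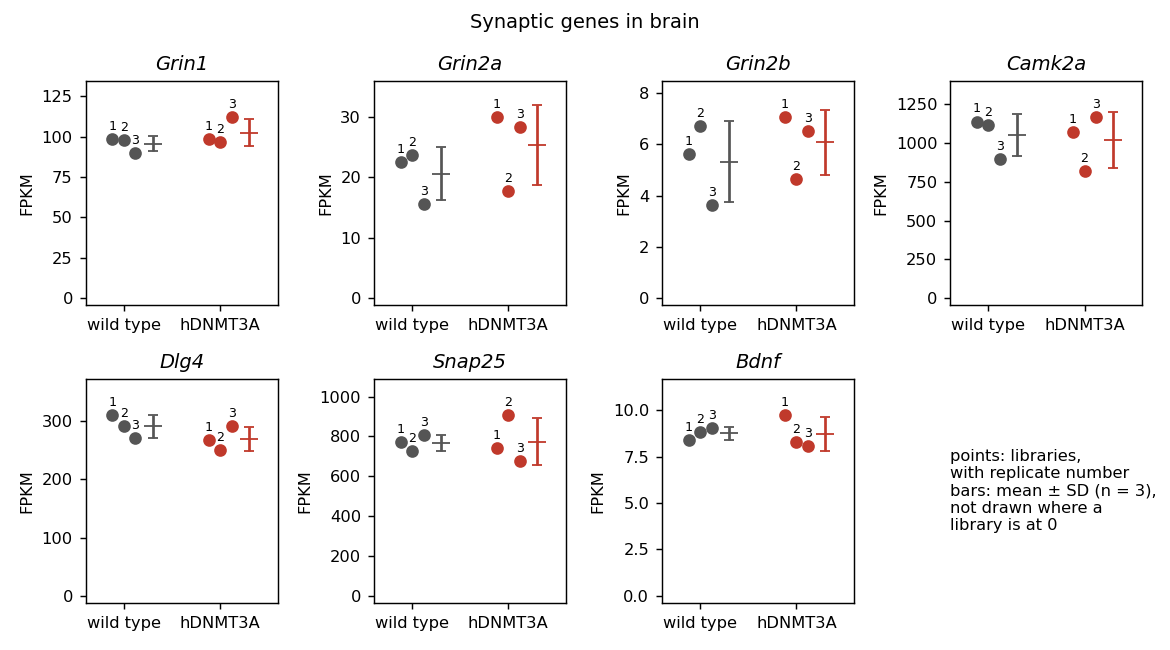
FPKM of the 7 genes in brain, with 1 panel per gene and 1 point per library (grey, wild type; red, hDNMT3A; the number is the replicate), and the mean ± SD of the 3 libraries beside the points. The groups overlap in each panel, and wild-type replicate 3 and hDNMT3A replicate 2 are the lowest libraries for Grin1, Grin2a, Grin2b and Camk2a.

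Whether the transgene went with altered levels of these genes in brain was asked first. None of the 7 genes was called: limma on log2(FPKM + 0.5), with Benjamini-Hochberg adjustment over the 13827 genes tested, gave adjusted p-values of 0.848 to 0.999, and 0.116% of all genes tested were called. At an unadjusted p under 0.05 the count was also 0 of 7, against 7.87% of all genes tested, and with limma's voom on the recovered reads it was 0 at either threshold. The wild-type and hDNMT3A ranges overlapped for each of the 7 genes, while they were apart for 13.4% of all genes tested. The median log2 fold change of the 7 was 0.00, and the median size was 0.10, close to the 0.09 of all genes.

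Among the receptor subunits, Grin1 measured 98.3, 98.1 and 90.1 FPKM in wild-type replicates 1 to 3 and 98.6, 97.0 and 112 FPKM in hDNMT3A replicates 1 to 3. hDNMT3A replicate 3 lay clearly above the wild-type range, replicate 1 lay above its top by less than 1 FPKM, and replicate 2 lay inside it. The log2 fold change, hDNMT3A minus wild type, was 0.10 (SE 0.08; limma adjusted p = 0.857), and its 95% interval ran from a 0.945-fold to a 1.22-fold level.

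Grin2a measured 22.5, 23.6 and 15.5 FPKM in wild-type brain and 29.9, 17.6 and 28.2 FPKM in hDNMT3A brain. hDNMT3A replicates 1 and 3 were above all wild-type libraries, but replicate 2 fell inside their range. The mean was 20.5 ± 4.41 FPKM in wild type and 25.2 ± 6.64 FPKM in hDNMT3A (SD, n = 3 each). The log2 fold change of 0.28 was the largest in size of the 7 (SE 0.23; limma adjusted p = 0.865), with an interval from 0.836-fold to 1.76-fold. It moved to 0.51 without hDNMT3A replicate 2, where the unadjusted p of limma was 0.0281, and to 0.09 without wild-type replicate 3, with no call in either fit.

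Grin2b measured 5.61, 6.73 and 3.64 FPKM in wild-type brain and 7.06, 4.64 and 6.53 FPKM in hDNMT3A brain, from 291 to 566 reads per library. Its lowest library was wild-type replicate 3, as for Grin2a, and the groups overlapped. The log2 fold change was 0.19 (SE 0.23; limma adjusted p = 0.924) and its interval ran from 0.782-fold to 1.67-fold. It was -0.04 without wild-type replicate 3, which left no direction to report.

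For the postsynaptic kinase gene Camk2a, wild-type brain held 1139, 1117 and 895 FPKM and hDNMT3A brain 1072, 819.95 and 1167 FPKM. The lowest library of each group lay far below its other 2. The log2 fold change was -0.05 (SE 0.15; limma adjusted p = 0.977), with an interval from 0.754-fold to 1.24-fold. The scaffold gene Dlg4 measured 311, 291 and 272 FPKM in wild type and 268, 251 and 291 FPKM in hDNMT3A, where replicates 1 and 2 lay below the wild-type range and replicate 3 inside it. Its log2 fold change was -0.11 (SE 0.08; limma adjusted p = 0.848), with an interval from 0.810-fold to 1.06-fold.

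The vesicle fusion gene Snap25 measured 770.2, 728 and 808 FPKM in wild-type brain and 740.4, 908 and 675 FPKM in hDNMT3A brain. The highest and the lowest of the 6 libraries were both hDNMT3A. The log2 fold change was 0.00 (SE 0.12; limma adjusted p = 0.999), with an interval from 0.830-fold to 1.21-fold. Bdnf was the steadiest of the 7 in brain, at 8.37, 8.84 and 9.05 FPKM in wild type and 9.74, 8.29 and 8.07 FPKM in hDNMT3A. Its log2 fold change was -0.01 (SE 0.10; limma adjusted p = 0.989), and the interval ran from 0.845-fold to 1.17-fold. A change of 2-fold lay outside the 95% interval of each of the 7 genes, and a change of 1.5-fold lay outside it for 5, the exceptions being Grin2a and Grin2b on the side of higher levels.

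**Figure D2:**
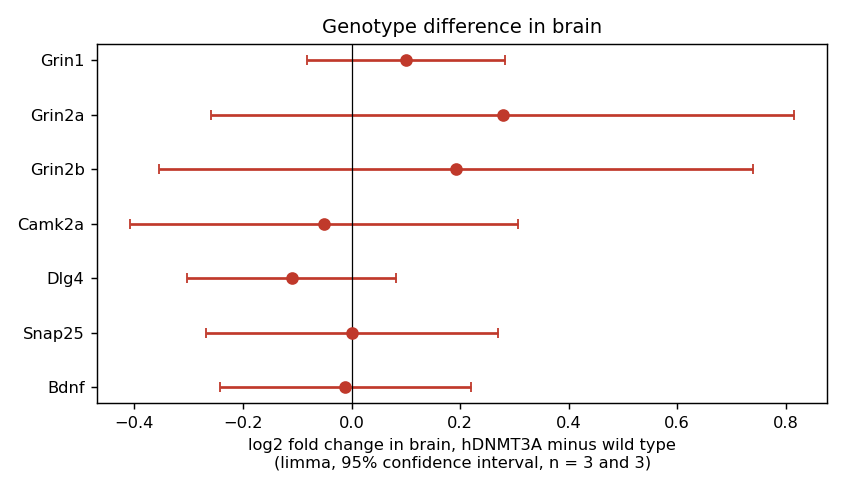
Log2 fold change in brain, hDNMT3A minus wild type, for each of the 7 genes (horizontal axis), with the point at limma's estimate and the bar as its 95% confidence interval (n = 3 and 3). Each bar crosses 0, and the widest bars are those of Grin2a and Grin2b.

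Within both genotypes the brain libraries differed from each other, and the genes did not all move alike. Wild-type replicate 3 and hDNMT3A replicate 2 were the lowest 2 libraries for 4 of the 7 genes, Grin1, Grin2a, Grin2b and Camk2a, and the highest 2 for Snap25. Among all 13827 genes tested the same libraries were the lowest pair for 13.5% and the highest pair for 11.2%, more than any other of the 15 pairs on both counts. This ordering was noticed in the values and was not tested. On the log2(FPKM + 0.5) scale, Grin2a lay 0.51 below its brain mean in wild-type replicate 3 and 0.33 below it in hDNMT3A replicate 2, and Grin2b lay 0.55 and 0.24 below its own. Camk2a was 0.20 and 0.32 below its mean and Snap25 0.07 and 0.24 above. The 203 testis genes stood at 0.062% and 0.119% of their testis level in these libraries, within the range of the others. The totals implied by the FPKM steps were 15209340 and 15700711 reads, the second being the largest of the brain libraries. The part that depth, RNA of another tissue, the dissected region or the cell make-up of a sample had in this ordering was not tested.

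**Figure D3:**
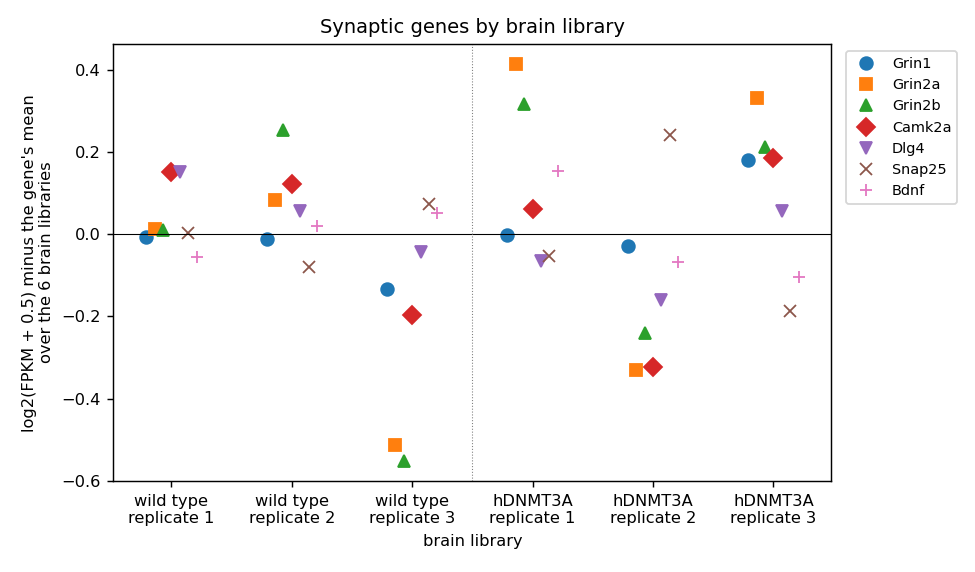
Deviation of each gene from its own mean over the 6 brain libraries, on the log2(FPKM + 0.5) scale (vertical axis), for each library (horizontal axis), with 1 symbol per gene. In wild-type replicate 3 and hDNMT3A replicate 2, Grin2a, Grin2b and Camk2a lie below 0 and Snap25 above it.

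Grin2a and Grin2b were the most variable of the 7. The highest brain library exceeded the lowest 1.93-fold for Grin2a and 1.94-fold for Grin2b, and 14.5% and 14.3% of the genes tested had a wider range. For Grin1 (1.24-fold), Dlg4 (1.24-fold) and Bdnf (1.21-fold) more than 67% of genes had a wider range. For Grin2b, the gene with the fewest reads, the exact Clopper-Pearson 95% counting interval of wild-type replicate 3 was 3.23 to 4.08 FPKM and that of hDNMT3A replicate 1 was 6.49 to 7.67 FPKM.

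The balance of these glutamate-binding subunits within a library varied much less than their levels. The ratio of Grin2a to Grin2b was 4.01, 3.51 and 4.26 in wild-type replicates 1 to 3 and 4.23, 3.81 and 4.32 in hDNMT3A replicates 1 to 3, so that Grin2a was the higher in all 6. The largest ratio exceeded the smallest 1.23-fold. The mean was 3.93 ± 0.380 in wild type and 4.12 ± 0.275 in hDNMT3A (SD, n = 3 each), a log2 difference of 0.07 that was not called (exact permutation test, two-sided, p = 0.6, or 0.9 adjusted over 8 ratios; the smallest p possible is 0.1). The difference was -0.01 without wild-type replicate 2, so it had no stable direction. A ratio within a library does not depend on how the library was scaled.

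The sum of Grin2a and Grin2b relative to Grin1 was less steady, with values of 0.286, 0.310 and 0.212 in wild type and 0.375, 0.230 and 0.310 in hDNMT3A. The lowest library of each group was again wild-type replicate 3 and hDNMT3A replicate 2. The log2 difference between genotypes was 0.17 (exact permutation p = 0.5, n = 3 each; adjusted p = 0.9), and it was 0.01 without wild-type replicate 3 or hDNMT3A replicate 1 and 0.36 without hDNMT3A replicate 2. The ratio of Camk2a to Snap25 ran from 0.903 in hDNMT3A replicate 2 to 1.73 in hDNMT3A replicate 3, and from 1.11 to 1.53 in wild type. Relative to Snap25, the other 6 genes had exact permutation p-values of 0.5 to 0.9 between genotypes for n = 3 each, in a design whose smallest p is 0.1, so no call was possible. The log2 difference of Grin2a relative to Snap25 was 0.28 and ran from 0.055 to 0.64 when single libraries were left out.

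**Figure D4:**
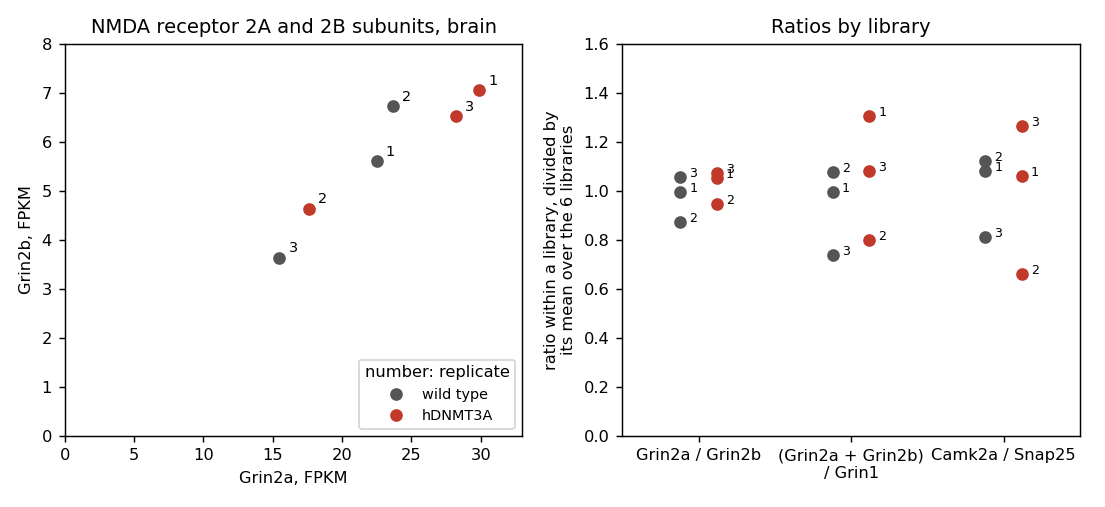
Left, FPKM of Grin2a (horizontal axis) and Grin2b (vertical axis) in the 6 brain libraries (grey, wild type; red, hDNMT3A; the number is the replicate); right, 3 ratios within each library, divided by their mean over the 6. The ratio of Grin2a to Grin2b stays between 3.51 and 4.32, while the other ratios spread more widely.

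Genes with a pattern like that of a member were sought over the 6 brain libraries, by the mean absolute difference between profiles centred on each gene's mean on the log2 scale, among genes of at least 10 FPKM whose range was at least 0.5 times that of the profile. Grin2b and Bdnf were below that level and so served as profiles only. For Grin2b, Grin2a ranked 5 among 1793 genes, with a mean difference of 0.09. Camk2a ranked 243 and was the only other member in that search, since the ranges of Grin1, Dlg4 and Snap25 were too small for it. For Camk2a the nearest member was Dlg4, at rank 490 of 4759. For Snap25 the nearest member at or above that level was Grin1, at rank 3192 of 5621 with a mean difference of 0.16. Bdnf, below that level and so not ranked, differed from Snap25 by 0.13. The genes nearest to the mean profile of the 7 were ENSRNOG00000018602 and ENSRNOG00000013963, with a mean difference of 0.01 each, and neither identifier could be paired with a name. These ranks describe 6 libraries that the genes share.

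Brain and testis were compared within each genotype as unpaired groups, and the comparisons share no library. All 7 genes were higher in brain than in testis in wild type, where 48.2% of the 16115 genes tested were called higher in brain and 89.7% were called in either direction. All 7 were also higher in brain in hDNMT3A rats, where these shares were 47.6% and 89.1% of 16102 genes. The median log2 difference of the 7, brain minus testis, was 6.40 in wild type and 6.25 in hDNMT3A, against 0.23 and 0.21 for all genes. Scaling each library to its median log2 ratio moved the median of all genes to 0.01 in each genotype and left all 7 calls. Grin1, Grin2a, Grin2b, Snap25 and Bdnf averaged under 1 FPKM in testis and passed the filter of these fits through brain alone. Passing it required a higher level in brain, so limma's p-values between tissues are not given for these genes. The 7 genes were also chosen with earlier results of these data known. Their higher level in the libraries labelled brain is therefore no independent check of the tissue labels.

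On the fitted scale Snap25 had the widest contrast. It had 2, 0 and 1 reads in wild-type testis and 1, 0 and 0 in hDNMT3A testis, against 21552 to 30166 reads in a brain library. The ratio of brain to testis reads at equal depth was 24829 in wild type (95% counting interval 8496 to 120403) and 75555 in hDNMT3A (13560.2 to 2984310). On the fitted scale its log2 difference was 10.50 in wild type (SE 0.08), which only 1 of 16115 genes exceeded, and it was 12.55 with a pseudocount of 0.1. Camk2a had a log2 difference of 9.26 in wild type (SE 0.16; limma adjusted p = 4.2e-08) and 9.26 in hDNMT3A (SE 0.26; adjusted p = 1.8e-08). Its testis level was 0.116% of its brain level in wild type.

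Bdnf had 0 reads in all 6 testis libraries. Against a floor of 3 reads over the 3 testis libraries of a genotype, the limit that a count of 0 allows, which is 0.011 FPKM, its brain level was at least 809.8-fold higher in wild type and at least 809.9-fold higher in hDNMT3A. The lower limit of the 2-sided 95% counting interval, of the kind given for Snap25, was 658-fold in each genotype. The fitted log2 differences of Bdnf, 4.21 in wild type and 4.20 in hDNMT3A, depend on the pseudocount and were 10.66 and 10.66 with voom, so its contrast cannot be ranked against that of Camk2a. These intervals and floors take in counting error alone: no molecular identifiers were available to separate molecules from PCR copies.

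The receptor subunit genes were low in testis but above 0 in each library. Grin1 had 39 to 52 reads in wild-type testis and 28 to 45 in hDNMT3A testis, with log2 differences between the tissues of 6.47 and 6.75. Grin2a had 4 to 10 and 2 to 6 reads, with differences of 5.08 and 5.50. Those of Grin2a also depend on the pseudocount: they were 6.60 and 7.32 with a pseudocount of 0.1 and 7.46 and 8.71 with voom, and the ratio of reads at equal depth was 181-fold and 448-fold. Grin2b had 6 to 9 and 9 to 12 reads, and with 3.25 and 3.36 it had the smallest contrast of the 7. For Grin2b the differences were 4.75 and 4.71 with a pseudocount of 0.1 and 5.68 and 5.44 with voom. As a share of the brain level in wild type, testis held 0.616% for Grin1, 0.544% for Grin2a and 1.80% for Grin2b. A set of 64 genes abundant in brain and nearly absent from testis, Snap25 among them, had 0.064% to 0.093% of their brain level in each testis library. These genes were picked for low testis values, so a small share was fixed by that choice and sets no level of carry-over. Whether RNA of another tissue contributed to the low testis values of the receptor subunit genes was not tested.

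Dlg4 had the highest testis level of the 7. It measured 3.28, 3.32 and 2.35 FPKM in wild-type testis and 3.64, 3.32 and 2.35 FPKM in hDNMT3A testis, from 121 to 177 reads, and the groups overlapped. Its testis level was 1.02% of the brain level in wild type and 1.15% in hDNMT3A. Camk2a measured 1.13, 0.952 and 1.57 FPKM in wild-type testis and 0.745, 0.935 and 2.01 FPKM in hDNMT3A testis, where replicate 3 lay above all other libraries. In testis these were the only members that reached the mean of 1 FPKM needed for the test.

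**Figure D5:**
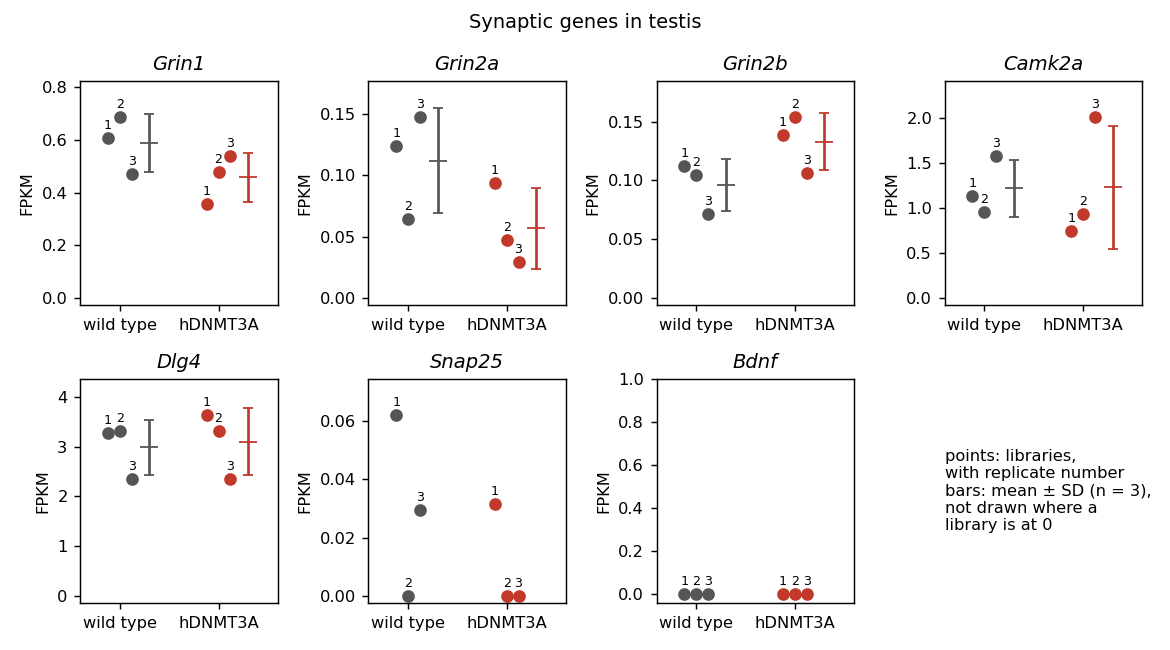
FPKM of the 7 genes in testis, with 1 panel per gene and 1 point per library (grey, wild type; red, hDNMT3A; the number is the replicate), each panel on its own scale, and the mean ± SD (n = 3) where no library is at 0. Dlg4 stands at 2.35 to 3.64 FPKM, Camk2a at 0.745 to 2.01 FPKM and Bdnf at 0 in all 6 libraries.

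In the comparison of genotypes in testis, neither of the 2 genes tested was called, where 0.576% of 14572 genes were. The log2 fold change, hDNMT3A minus wild type, was 0.04 for Dlg4 (SE 0.19; limma adjusted p = 0.955; interval 0.751-fold to 1.42-fold) and -0.04 for Camk2a (SE 0.30; adjusted p = 0.974; interval 0.592-fold to 1.59-fold). Both were also uncalled with voom, and 0 of 2 had an unadjusted limma p under 0.05, against 11.1% of all genes tested. The groups overlapped for both, while they were apart for 17.7% of the genes tested. With no filter on low values, limma also gave adjusted p-values for Grin1 (0.769), Grin2a (0.768), Grin2b (0.80) and Snap25 (0.870). For Grin2a these fits rest on 22 reads in wild-type and 11 reads in hDNMT3A testis, and the pseudocount is larger than its mean levels there, 0.112 and 0.057 FPKM, which shrinks the fitted difference.

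Whether the genotype difference itself differed between the tissues could be tested for the same 2 genes, and neither was called, beside 0.421% of 10917 genes. The difference in brain minus that in testis was -0.01 for Camk2a (SE 0.34; limma adjusted p = 0.999) and -0.15 for Dlg4 (SE 0.21; adjusted p = 0.926) on the log2 scale. At an unadjusted limma p under 0.05 the count was 0 of 2, against 8.04% of all genes tested, and it was 0 with voom. With no filter, the lowest adjusted p of the 7 was that of Grin1, at 0.679 for a difference of 0.28.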

How the data were processed

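RNA-seq was made from total RNA extracted with Trizol and built into libraries with the Illumina TruSeq kit, per the labels' protocols. The submitters' processing notes name Bowtie 1.0.1 and the rat build Rnor 6.0. No source used here gives the annotation, the counting tool, the strand setting or how multiply aligned reads were handled. Expression is in FPKM, in a single table the authors deposited, which has Ensembl identifiers and no names.

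Reads were recovered as whole multiples of the FPKM step of each gene, within 0.002 reads for 100% of genes, with lengths up to 60000 bases tried. Genotypes, tissues and their interaction were fitted on log2(FPKM + 0.5) by limma 3.58.1 (trend option; R 4.3.3). Genes whose mean over the compared libraries was under 1 FPKM were left out (in each tissue for the interaction). Calls were two-sided, at an adjusted p under 0.05. Fold changes on this scale understate the change of low genes. Ratios used exact permutation tests. Python 3.11.15, numpy 2.4.6, pandas 2.3.3, scipy 1.17.1 and matplotlib 3.10.9 were used. The fits and the recovery of reads were tested on simulated data. Genes abundant in 1 tissue only were those averaging 100 FPKM or more there, with a median of 0.5 FPKM or less in the other.

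All 7 members were named. Genes of like pattern were the nearest profiles over the brain libraries, with at least 10 FPKM. The members and lists were chosen with earlier results of these data known. The lists of other synaptic genes and cell type markers could not be matched to identifiers and were not used.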

Additional observations from a re-analysis of the deposited data

How the results depend on the processing

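In brain none of the 7 genes was called between genotypes under the 16 alternatives run. Camk2a and Dlg4 were tested, and not called, in 16 alternatives in testis and 22 for the interaction. The other genes were tested in testis only with no filter (Bdnf not at all) and for the interaction only with no filter or with a mean of 1 FPKM over all libraries, and none was called there. All 7 were called between tissues in each of the 16 alternatives of either genotype, but so were 13857 or more of all genes tested. In the main fits 89.7% of genes were called in wild type and 89.1% in hDNMT3A. Grin1, Grin2a, Grin2b, Snap25 and Bdnf passed the filter through brain alone, which fixed their direction in the filtered fits. For genotype and the interaction, the counts over all genes moved more than those of the 7. Brain calls were 16, also with voom on the recovered reads, against 7 with a pseudocount of 0.1, 57 with all 12 libraries in 1 fit and 2 to 8 without single libraries (each of the 6 lowered the count 2 times or more, to 2 without wild-type replicate 2). Testis calls were 84, against 196 with array weights, 190 with voom, 247 with all 12 libraries in 1 fit and 20 to 80 without single libraries (20 without wild-type replicate 2, 37 without wild-type replicate 3, 41 without wild-type replicate 1 and 47 without hDNMT3A replicate 2). Interaction calls were 46, against 103 with no filter, 69 with a mean of 1 FPKM over all libraries, 87 with array weights and 25 to 44 without single libraries (25 without hDNMT3A brain replicate 1). The cause was not tested. With the replicate number as a block, which pairs wild-type and hDNMT3A libraries by number, the counts were 0 in brain and 39 in testis. For the interaction the block instead paired brain with testis by number within each genotype, and the count was 1. Across 8171 genes, r was taken between the deviations of libraries from their own group means, not between their levels. Between same-numbered brain and testis libraries of a genotype it ran from -0.085 to 0.20, and between other-numbered ones from -0.18 to 0.10. For libraries of different genotype in a tissue it ran from -0.43 to 0.14 with the same number and from -0.28 to 0.39 with another. A low r cannot decide whether brain and testis came from the same animals, and the main fits did not pair them.

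Uncalled values near 0 changed sign. In brain, Snap25 was -0.055 with quantile normalization and -0.032 with array weights, and Bdnf was 0.014 and 0.025. The Camk2a interaction was 0.026 with a pseudocount of 0.1, 0.020 with median-ratio scaling, 0.025 with quantile normalization, 0.11 with array weights and 0.037 with voom. Without single libraries the log2 fold changes in brain ran from -0.035 to 0.37 for Grin2b, -0.16 to 0.10 for Camk2a, -0.12 to 0.095 for Snap25 and -0.091 to 0.038 for Bdnf. In testis they ran from -0.35 to 0.16 for Camk2a and -0.095 to 0.20 for Dlg4, and the Camk2a interaction from -0.21 to 0.30. The log2 ratio differences ran from -0.0059 to 0.13 for Grin2a to Grin2b. Relative to Snap25 they ran from -0.25 to 0.22 for Camk2a, -0.26 to 0.061 for Dlg4, -0.12 to 0.14 for Bdnf, -0.059 to 0.26 for Grin1 and -0.078 to 0.52 for Grin2b. How far depth limits these values, apart from the spread between libraries, was not tested. The testis values of Grin2a, Grin2b and Snap25 rest on at most 12 reads per library.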
